A study of Saccharomyces cerevisiae with 12 samples.

Results

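The comparison asks whether the transcript changes of a yeast strain with both GCR1 and NUP84 deleted equal the summed changes of the single deletions. All 12 two-colour arrays of the series enter it, and it was made for all 5636 genes that the probes name. RNA of Saccharomyces cerevisiae grown in 2% glucose was hybridised from strains labelled gcr1 null, nup84 null and nup84gcr1 null (the double null), each against wild type. Each strain has 4 arrays, described by the submitters as biological samples with technical dye swaps, so n = 2 samples per strain. Sample 1 is the mean of arrays 1 and 3 and sample 2 the mean of arrays 2 and 4. No label ties a sample of one strain to a sample of another, so a sum "in sample 1" joins samples by number only. Over genes, the sample 1 minus sample 2 difference correlated at 0.552 between the strain labelled gcr1 null and the double null. What the samples of a number share was not tested. The labels give neither the strain background, the number of clones behind a strain, nor whether the wild-type RNA was shared.

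Gcr1 is a DNA-binding activator known for driving glycolytic and ribosomal protein genes in glucose-grown yeast. Nup84 belongs to the structural core of the nuclear pore, and pores are known to touch active genes as well as to carry RNA out of the nucleus. Changes that add on the log2 scale mean folds that multiply. A double null short of the sum lies on the wild-type side of it, and one beyond the sum lies farther out. Short thus also takes in a double null that passed wild type to the other side, whatever its size.

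Every value below is a log2 ratio of a deletion strain over wild type unless a fold is named. The sum is the gcr1 null value plus the nup84 null value, and the distance from the sum is the double null value minus that sum. Standard errors (SE) and adjusted p-values are from limma, with Benjamini-Hochberg adjustment over all 5636 genes, and a gene was called at an adjusted p under 0.05. The SE pools the spread over all 3 strains.

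The deleted genes were read first. NUP84 lay at -3.51 and -2.88 in the samples of the nup84 null, at -3.04 and -2.44 in those of the double null and at -0.51 and -0.47 in those labelled gcr1 null. GCR1 went against its label. It lay at 0.90 and 1.26 in the samples labelled gcr1 null and at 0.69 and 0.87 in those labelled double null, and it rose in both strains (limma adjusted p = 0.00453 and 0.0174). Whether its probes lie in the deleted part is not known, so GCR1 checks nothing here. Every direction below rests on the strains as labelled.

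Whole nuclear chromosomes stood apart in 2 of the strains. The 382 genes of chromosome II had a median of 0.64 in sample 1 and 0.68 in sample 2 of the strain labelled double null. The other 15 nuclear chromosomes had medians over both samples between -0.10 and 0.20 in that strain. The shift was present along both arms of chromosome II, with a median of 0.66 for 101 genes of the left arm and 0.68 for 281 genes of the right arm. On the fold scale, the median of the chromosome was 1.59 times wild type. Neither single null showed it: the chromosome II median was -0.01 in the strain labelled gcr1 null and 0.01 in the nup84 null.

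A second chromosome moved in 1 sample only. The 89 genes of chromosome I had a median of 0.75 in sample 2 of the nup84 null and -0.03 in sample 1. By array, these medians were 0.86 and 0.84 on arrays 2 and 4, and -0.10 and 0.14 on arrays 1 and 3. No other nuclear chromosome median left the range from -0.09 to 0.09 in sample 2. The labels say nothing of the number of copies of a chromosome, and whether it differed between strains was not tested. Genes of both chromosomes that are described below have their distance also after each chromosome was centred on its own median. The 19 mitochondrial genes had medians of 0.72, 0.54 and 0.91 in the strain labelled gcr1 null, the nup84 null and the double null, with 18, 14 and 19 of them above wild type in both samples.

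**Figure D1:**
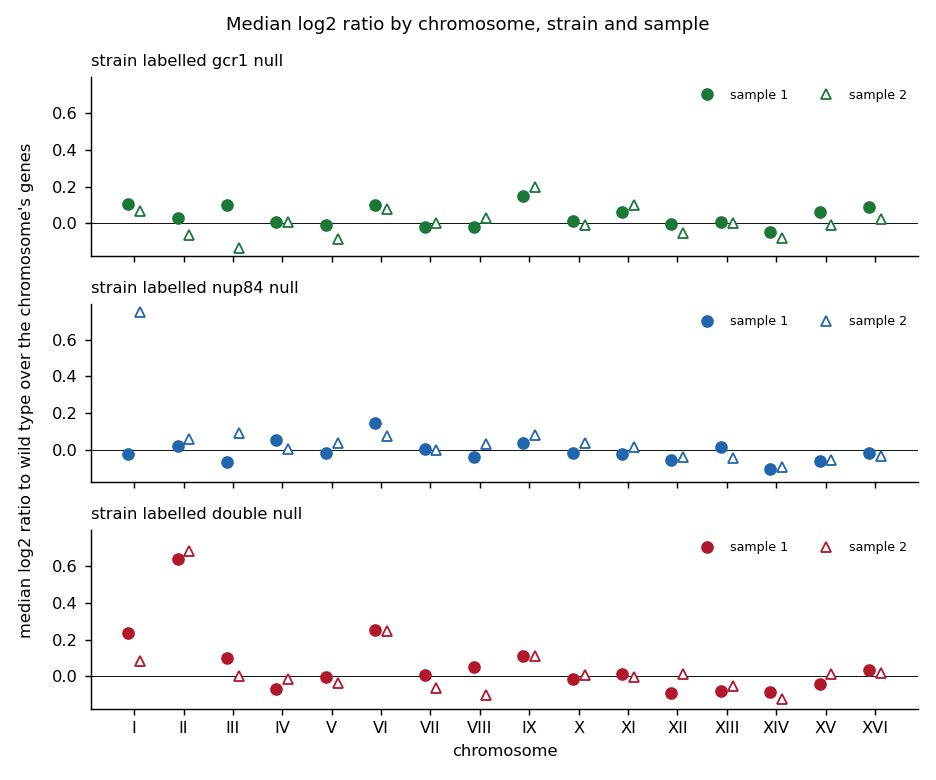
Median log2 ratio to wild type over the genes of each nuclear chromosome, for sample 1 (filled circles) and sample 2 (open triangles) of each strain. Chromosome II stands at 0.64 and 0.68 in both double null samples, and chromosome I at 0.75 in sample 2 of the nup84 null alone.

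Each strain alone differed from wild type at many genes. Limma called 1964 genes (34.8%) in the strain labelled gcr1 null, 941 (16.7%) in the nup84 null and 2224 (39.5%) in the strain labelled double null. No gene was called off the sum, so the share called there was 0%, and the lowest adjusted p was 0.0538. That count takes, for each gene, the larger p of both ways to match dye swaps. When array 1 was matched with 4 and array 2 with 3 alone, 3627 genes were called. The absence of calls thus rests on a pairing that the labels do not give. Under that match both pair means of a strain lay closer together. Across genes, their differences had SDs of 0.175, 0.177 and 0.206 in the strain labelled gcr1 null, the nup84 null and the double null. With arrays 1 and 3 and arrays 2 and 4 matched, these SDs were 0.497, 0.421 and 0.807. The chromosome I medians of the nup84 null were 0.86 and 0.84 on arrays 2 and 4, and -0.10 and 0.14 on arrays 1 and 3. In that strain, matching 1 with 4 and 2 with 3 averages arrays of unlike chromosome I level. Which match is right was not tested. At an unadjusted p under 0.05, a threshold chosen after these counts were seen, 909 genes (16.1%) stood off the sum. Of these, 415 (7.36%) lay below the sum and 494 (8.77%) above it. Chromosome II held 139 of the 494 genes above the sum and 4 of the 415 below. Without chromosomes I and II, 353 genes lay above and 402 below, of 5165. With the genes of each chromosome centred on their own median, 828 genes (14.7%) stood off the sum at that threshold.

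Among the 779 genes called the same way in both single nulls, the double null was short of the sum in 772. The SD over genes was 1.51 for the sum and 1.01 for the strain labelled double null, against 0.928 for the strain labelled gcr1 null. In 4535 of 5636 genes (80.5%), the distance from the sum had the opposite sign to the sum, in 3481 of them in both samples. The share was still 73.2% among the 3518 genes called in neither single null, so by itself it shows little. Of the 909 genes, 879 were short of the sum and 30 beyond it. The 879 were counted by sign alone and include genes that passed wild type to the other side. SPL2 had a sum of -0.49 and a double null of 2.31, and MET22 had -0.49 and 1.25. The 879 are therefore not a count of smaller responses. The single nulls enter both the sum and the distance, so an error in either one pushes toward this pattern. When genes past 1 in both single nulls were chosen on 1 sample and measured on the other, 335 of 345 and 567 of 630 were short. The other limit is the wild type: a deviation of wild-type RNA shared by all arrays enters the distance once, with opposite sign, and cannot be told apart from a double null short of the sum.

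**Figure D2:**
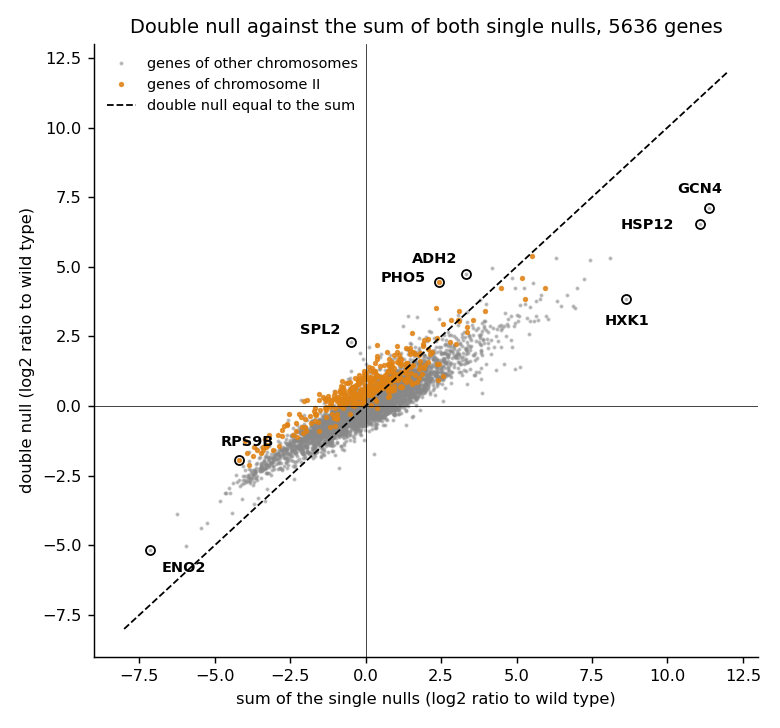
Log2 ratio to wild type in the strain labelled double null (vertical) against the sum of both single nulls (horizontal), 1 point per gene, with genes of chromosome II in orange and equality as the dashed line. HXK1 lies at a sum of 8.63 and a double null value of 3.84, and the chromosome II genes form an upper fringe.

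The double null was measured close to the sum in few genes. For 618 genes the 95% interval of the distance lay between -1 and 1, and only 52 of these had a sum past 1 in size, of 2378 such genes. The 5 with the largest sums were taken as examples. POX1, the acyl-CoA oxidase of peroxisomal fatty acid breakdown, lay at 2.08 in the strain labelled gcr1 null, 0.67 in the nup84 null and 2.65 in the double null, a distance of -0.10 ± 0.35 (SE). ATP6 and ATP8, subunits of ATP synthase encoded in mitochondrial DNA, had sums of 2.59 and 2.35 and double null values of 2.55 and 2.35. SIP4, an activator of gluconeogenic genes, reached 1.83 against a sum of 1.93. SCP160, an RNA-binding protein of polysomes, was the example that fell: its sum was -1.71 and its double null value -1.73. In these 5 genes the nup84 null itself was not called, at adjusted p from 0.0519 to 0.163 (limma), so the sum rested mostly on the strain labelled gcr1 null.

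Genes that rose in both single nulls were mostly short of the sum, in 376 of 383. These 383 genes, called by limma, had a median of 1.42 in the strain labelled gcr1 null, 1.25 in the nup84 null and 1.55 in the double null. The median sum was 2.70 and the median distance from it -1.16, at -0.92 in sample 1 and -1.40 in sample 2. In 187 of the 383 the double null was no farther from wild type than the larger single null, in 189 it lay between that value and the sum, and in 7 beyond the sum. The 2 samples split differently: 123 genes were no farther than the larger single null in sample 1 and 256 in sample 2. Added as fold increases rather than as logs, the singles still exceeded the double null in 217 of 266 genes past 1 in both, with a median shortfall of -0.467.

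HXK1, the hexokinase isoform that glucose represses, had the largest distance of any gene. Its samples read 4.49 and 4.14 in the strain labelled gcr1 null, 4.43 and 4.20 in the nup84 null and 4.73 and 2.94 in the double null. The 3 strains overlapped, at a distance of -4.79 ± 0.64 from the sum (limma adjusted p = 0.0724). The double null fold was 14.3 where the product of the single folds was 396. HSP12, a stress-induced membrane protein, read 6.07 and 4.68, 5.62 and 5.78, and 6.62 and 6.47 in the same order. Both double null samples lay above all 4 single null samples, yet the distance was -4.53 ± 0.53 (limma adjusted p = 0.0538).

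Storage carbohydrate genes shared this shape. Trehalose and glycogen serve yeast as reserve sugars made when growth slows. Of 21 measured genes of their metabolism, 18 rose in the strain labelled gcr1 null, 15 in the nup84 null and 17 in the double null, and 20 lay below the sum. The list's median was 1.30, 1.46 and 1.44 in the 3 strains, with a median distance of -1.48 against 0.02 over all genes. That distance was -0.87 in sample 1 and -2.09 in sample 2. At the unadjusted threshold 13 lay below and 0 above, or 61.9% against 16.1% of all genes. Among all 383 genes called higher in both single nulls, the share off the sum at that threshold was 67.6%. GPH1, glycogen phosphorylase, read 2.81 and 2.94 in the strain labelled gcr1 null, 3.88 and 4.08 in the nup84 null and 3.91 and 3.28 in the double null. The double null overlapped the nup84 null, at -3.26 ± 0.39 from the sum (limma adjusted p = 0.0538). SGA1, a glucoamylase known from sporulation, rose 2.69 in the nup84 null but 1.23 in the double null. GLG1, the glycogenin that primes glycogen, had a double null mean of 1.24 and single null means of 1.85 and 1.90. NTH2, a trehalase, and TPS1, the trehalose-6-phosphate synthase, both on chromosome II, stood nearer the sum, at 0.36 and -0.07, which became -0.29 and -0.72 with chromosomes centred.

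In the general stress list, 42 genes lay below the sum and 12 above. Of 54 genes, 39, 36 and 45 rose in the strains in the same order, with medians of 1.501, 1.465 and 1.935, and the median distance was -0.76. In sample 1 the median distance was -0.48 and in sample 2 -1.18, and 21 genes lay below and 1 above at the unadjusted threshold. That was 40.7% of the list, against 16.1% of all genes. CTT1, cytosolic catalase, reached 2.89 in the double null against singles of 2.37 and 2.54. HSP26, a small heat shock chaperone of chromosome II picked after its values were seen, went to 5.38 from singles of 1.59 and 3.93, at -0.14 from the sum, or -0.78 with chromosomes centred. GPX2, a phospholipid hydroperoxide peroxidase of chromosome II, ran the other way. It fell in all 3 strains, by 2.47, 0.83 and 1.47, and lay 1.82 above the sum, or 1.18 with chromosomes centred.

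In the seripauperin, DAN and TIR families, cell wall mannoproteins known for induction without oxygen, the double null rarely passed the larger single null. Of 30 measured genes, 23 rose in both singles, and in 22 of these the double null was no farther from wild type than the larger single. Among all genes that rose in both, that share was 187 of 383. The list's median was 1.13, 1.26 and 0.98, and 23 genes lay below the sum at the unadjusted threshold. That was 76.7% of the list, against 16.1% of all genes. PAU21 read 1.33 and 1.24, 1.04 and 1.54, and 1.06 and 0.79. These genes are near-identical in sequence, so their probes may repeat 1 signal.

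Other genes of the same shape came from several pathways. SER3, which starts serine synthesis, had singles of 2.89 and 2.81 and a double null of 3.09. SPS19, a peroxisomal reductase for unsaturated fatty acids, had 3.670, 3.002 and 4.004. PIR3, a cell wall protein, had 3.446, 3.498 and 3.509, and NQM1, a transaldolase isoform, 2.60, 3.19 and 3.85. YGP1, a secreted glycoprotein of nutrient limitation, and BDH1, butanediol dehydrogenase, had lower means in the double null than in either single. YGP1 read 1.52 against 2.20 and 2.37, and BDH1, a gene of chromosome I, 1.31 against 2.52 and 1.80. The distance of BDH1 was -3.01, and -2.65 with chromosomes centred. All 6 SNZ and SNO genes, tied to vitamin B6, lay below the sum. SNZ1 had 4.63, 2.78 and 5.24.

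**Figure D3:**
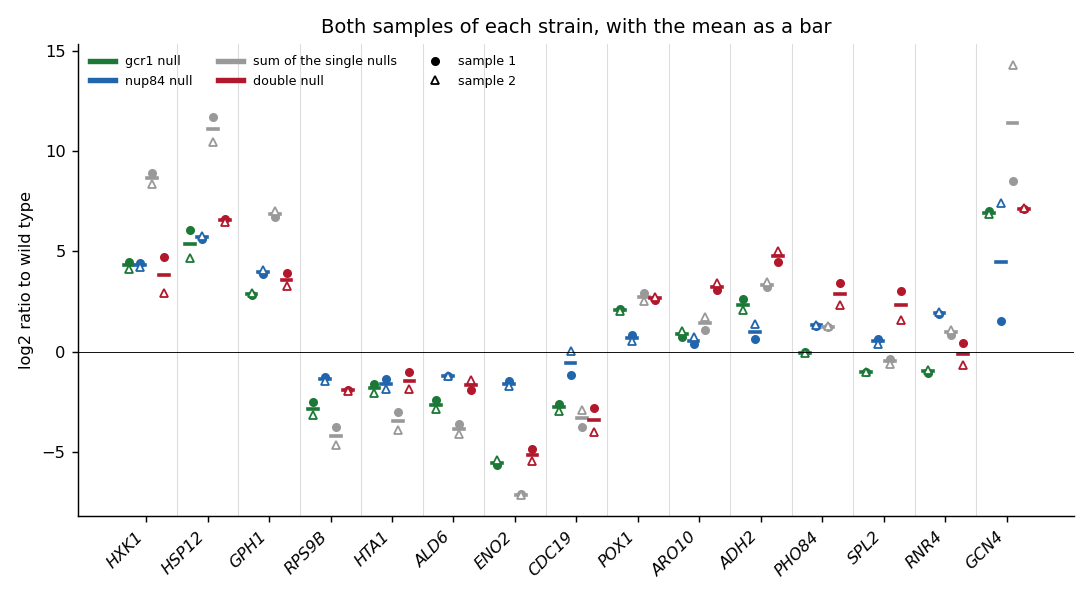
Log2 ratio to wild type in sample 1 (filled circles) and sample 2 (open triangles) of each strain and of the sum joined by sample number, with means as bars. HXK1, HSP12 and GPH1 lie below the sum, RPS9B, HTA1 and ALD6 above it, and ARO10 and ADH2 beyond it.

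Genes that fell in both single nulls mirrored those that rose. Limma called 396 genes lower in both, with medians of -1.57 in the strain labelled gcr1 null, -1.03 in the nup84 null and -1.55 in the double null. All 396 lay above the sum, 379 in both samples, with a median distance of 1.10. In 244 the double null was no farther from wild type than the larger single, in 152 it lay between, and in 0 beyond. In sample 1 alone 16 genes lay beyond the sum, and in sample 2 alone 1 did. Chromosome II carried 29 of the 396, all 29 no farther than the larger single, at a median distance of 1.89. The 367 genes on other chromosomes had a median distance of 1.09.

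Cytosolic ribosomal protein genes made up 123 of these 396, and in 101 of the 123 the double null was no farther than the larger single. Of 135 measured genes, 134 fell in the strain labelled gcr1 null, 123 in the nup84 null and 133 in the double null. The list's median was -2.27, -1.11 and -2.10, against a sum of -3.38. All 135 lay above the sum in both samples. At the unadjusted threshold 123 did, or 91.1%, against 16.1% off the sum among all genes and 71.5% among the 396. The median distance was 1.24. Over the alternatives that leave out 1 pair of arrays, that median ranged from 0.993 to 1.501. The 10 genes on chromosome II had a median distance of 1.93 and the 125 outside chromosomes I and II one of 1.23.

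RPS9B, of the small subunit, read -2.50 and -3.18 in the strain labelled gcr1 null, -1.26 and -1.47 in the nup84 null and -1.90 and -1.97 in the double null. The double null lay between the single nulls without overlap, at 2.26 ± 0.40 from the sum (limma adjusted p = 0.0731). With chromosomes centred, its double null mean went from -1.94 to -2.60, so the gap to the strain labelled gcr1 null may not remain. RPS9B, RPL19B and RPL32, the ribosomal protein genes among the 10 highest distances of all genes, are all on chromosome II. With chromosomes centred, the distances became 1.62, 1.61 and 1.59. Many ribosomal protein genes are pairs of near-identical copies, so the probes may not tell pairs apart.

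Histone genes were the other strong case. Core histones are made in S phase to package new DNA. In RNA of a whole culture, fewer cells in a state and less RNA per cell cannot be told apart. Of 11 measured histone genes, 9 fell in the strain labelled gcr1 null, 7 in the nup84 null and 7 in the double null, and 10 lay above the sum. The list's median was -1.50, -1.16 and -1.03, and the median distance was 1.57, with 9 genes above at the unadjusted threshold. The 9 genes were 81.8% of the list, against 16.1% off the sum among all genes. HTB2, a histone H2B gene, read -1.87 and -2.56, -1.62 and -1.91, and -0.82 and -1.67. Its distance was 2.74 ± 0.47 (limma adjusted p = 0.0731), and 2.10 with chromosomes centred. HTB2, HTA2, HHT1 and HHF1 are on chromosome II, and the distances of the last 3 went from 2.19, 2.14 and 1.68 to 1.546, 1.499 and 1.042. HTA1, an H2A gene outside it, read -1.62 and -2.05, -1.39 and -1.84, and -1.03 and -1.88, at 1.99 from the sum. The median distance was 1.51 for the 7 histone genes outside chromosome II, and CSE4, the centromeric histone H3, was the single gene below its sum.

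The rest of the translation apparatus moved less. Translation factors had medians of -1.09, -0.76 and -1.11 over 38 genes, with 17 above and 1 below the sum at the unadjusted threshold. RNA polymerase I and III subunits had a median distance of 0.59 over 28 genes, 7 above and 0 below. SUP45, the release factor, and RPB5, a subunit shared by the nuclear RNA polymerases, led these lists at 1.93 and 1.98, and at 1.28 and 1.34 with chromosomes centred, as both are on chromosome II. Ribosome biogenesis was uneven between samples. Its 116 genes had a median distance of -0.22 in sample 1 and 0.92 in sample 2. Of them 81 fell in the strain labelled gcr1 null, 30 in the nup84 null and 96 in the double null, and NOP1, the box C/D methyltransferase, lay at -1.67, -1.41 and -1.61. Mitochondrial ribosomal proteins lay closer to wild type, with a median distance of 0.33 over 69 genes.

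Other genes far above the sum had various roles. ALD6, the cytosolic acetaldehyde dehydrogenase, read -2.42 and -2.86 in the strain labelled gcr1 null, -1.21 and -1.24 in the nup84 null and -1.92 and -1.42 in the double null. The double null lay between the singles, 2.20 ± 0.39 above the sum. FRE4, a ferric reductase, had -1.48, -2.15 and -1.52, and SUN4, a protein of septum and cell wall, -2.05, -2.02 and -2.14. TNA1, the nicotinic acid permease, fell in both singles, to -0.96 and -1.19, and stood at 0.20 in the double null (limma adjusted p = 0.561). CHA1, a serine and threonine deaminase, had -4.32, -1.92 and -3.88. DUT1, the dUTPase, and SND3, an endoplasmic reticulum targeting factor, had distances of 2.25 and 2.23, which became 1.61 and 1.59 with chromosomes centred.

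**Figure D4:**
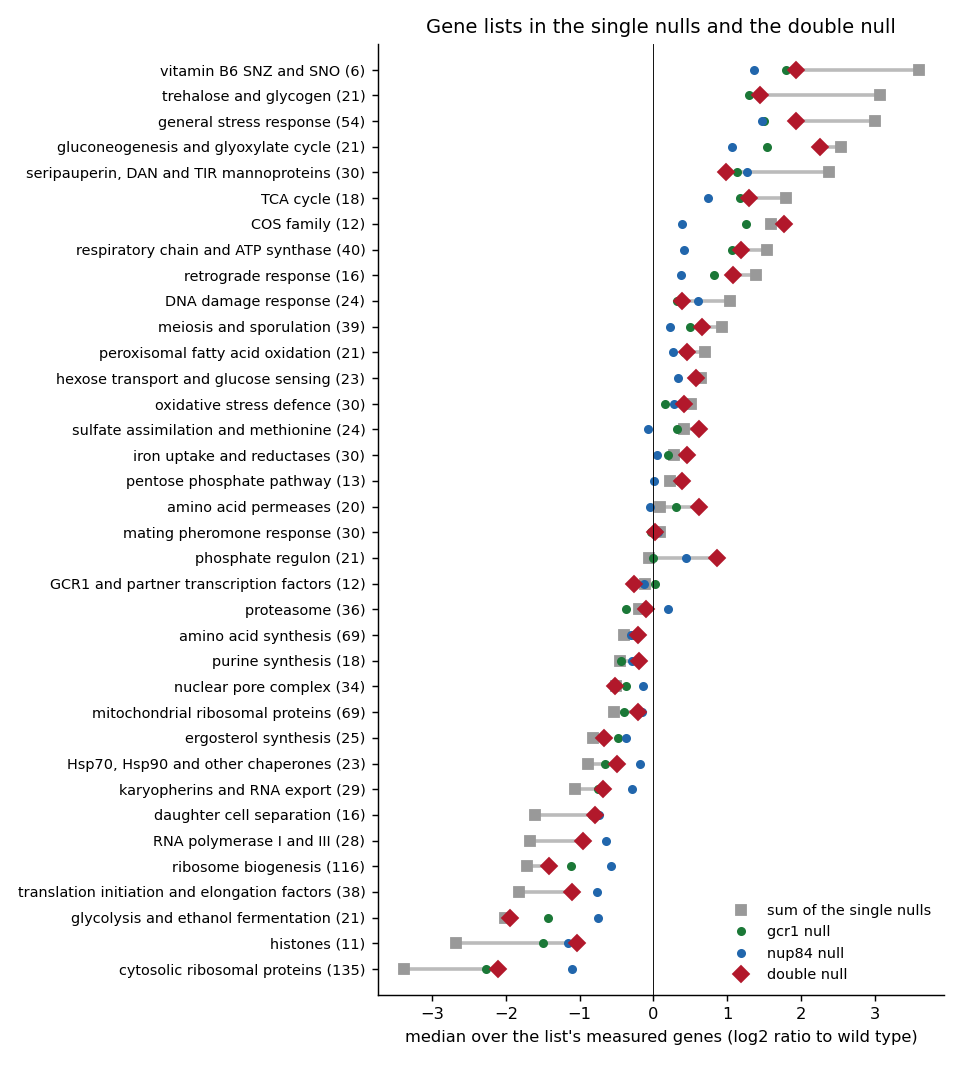
Median log2 ratio to wild type over the measured genes of each list (number in brackets) in the strain labelled gcr1 null (green), the nup84 null (blue), their sum (grey squares) and the double null (red diamonds). The double null median of the ribosomal proteins is -2.10 against a sum of -3.38, and that of the phosphate regulon is 0.86 against -0.06.

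Glycolysis, the pathway for which Gcr1 is best known, was a mixture. Of 21 genes of glycolysis and fermentation, 15 fell in the strain labelled gcr1 null, 4 in the nup84 null and 15 in the double null. The list's median was -1.43, -0.76 and -1.94, and the median distance was 0.29. That median had opposite signs in the samples, 0.91 and -0.28, and changed sign over the alternatives that leave out a pair of arrays, from -0.24 to 1.12. No general statement on the list's additivity can be made at n = 2.

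Where the strain labelled gcr1 null was lowest, the double null stood close to it. ENO2, an enolase, read -5.65 and -5.41 in the strain labelled gcr1 null, -1.47 and -1.72 in the nup84 null and -4.87 and -5.47 in the double null. The double null overlapped the strain labelled gcr1 null, at 1.96 ± 0.40 from the sum (limma adjusted p = 0.107). GPM1, phosphoglycerate mutase, had -5.15, -0.80 and -5.03, and ENO1, the other enolase, -4.24, -1.23 and -4.36. PGI1, phosphoglucose isomerase, fell by 1.43 in the strain labelled gcr1 null and stood at -0.47 in the double null. PGI1 is on chromosome II, and its distance of 1.54 became 0.90 with chromosomes centred. Other enzymes stood near their sums with wide intervals. CDC19, the main pyruvate kinase, had a sum of -3.33 and a double null of -3.40, with a distance of 0.97 in sample 1 and -1.10 in sample 2. CDC19 is on chromosome I, and its nup84 null samples read -1.16 and 0.05. With chromosomes centred, its distance went from -0.07 to 0.29. PFK1, a phosphofructokinase subunit, had a sum and a double null value of -1.25, with an interval of the distance from -0.77 to 0.77, while the partner subunit PFK2 lay 1.01 above its own.

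**Figure D5:**
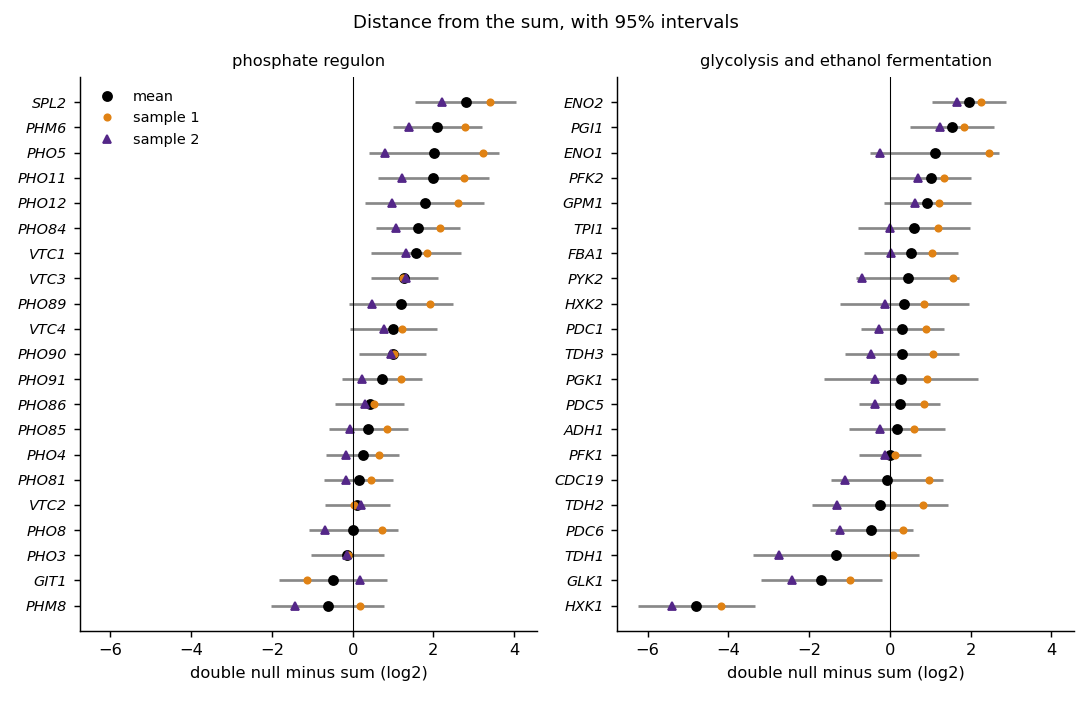
Distance of the double null from the sum for phosphate genes (left) and glycolytic genes (right), in log2 units, with both samples, the mean and its 95% interval. SPL2 lies 2.80 above its sum and HXK1 4.79 below, and most glycolytic intervals include 0.

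Genes for non-fermentable carbon mostly rose in all 3 strains and were unevenly short of the sum. The gluconeogenesis and glyoxylate list had medians of 1.54, 1.07 and 2.26 over 21 genes, against a sum of 2.54. Of these genes, 18, 15 and 20 rose in the 3 strains. The median distance was -0.36, but -0.64 for the 18 genes outside chromosomes I and II and -1.04 under scale normalization of the arrays. At the unadjusted threshold 7 genes lay below and 1 above, or 38.1% against 16.1% of all genes. ADR1 and CAT8, activators of glucose-repressed genes, were short of the sum, with distances of -2.43 and -1.65. FBP1 and PCK1, enzymes specific to gluconeogenesis, had distances of -1.33 and -1.12. ACS1, acetyl-CoA synthetase, and MLS1, malate synthase of the glyoxylate cycle, had distances of 0.20 and 0.48, and ACS1, on chromosome I, 0.56 with chromosomes centred. ALD4, a mitochondrial aldehyde dehydrogenase, rose 3.25, 2.00 and 4.23.

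ADH2, the glucose-repressed alcohol dehydrogenase, was the only gene of that list beyond the sum at the unadjusted threshold. It read 2.60 and 2.08 in the strain labelled gcr1 null, 0.60 and 1.38 in the nup84 null and 4.45 and 5.03 in the double null. Both double null samples lay above every single null sample, at 1.41 ± 0.47 beyond the sum (unadjusted p = 0.0151, limma adjusted p = 0.217). The double null fold was 26.7, where the product of the single folds was 10.1. CIT3, a mitochondrial methylcitrate and citrate synthase picked after its values were seen, had 3.40, 0.78 and 4.95. Over the TCA cycle the median distance was -0.61 in 18 genes, with CIT1, mitochondrial citrate synthase, at -1.74. That median ranged from -0.96 to -0.17 when a pair of arrays was left out. Over the respiratory chain and ATP synthase the median distance was -0.28 in 40 genes, of which 32, 8 and 38 rose, with CYB2, lactate dehydrogenase, at -1.75. The sign of the respiratory median changed over the alternatives that leave out a pair of arrays, from -0.67 to 0.08.

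The genes beyond the sum were few and partly set by chromosome. Genes such as SPL2, which passed wild type to the side away from their sum, are not counted among them. Of the 30 at the unadjusted threshold, 28 were higher and 2 lower than their sum, and all 30 were called in the double null against wild type. A gene beyond its sum lies farther from wild type than from the sum, so that call follows largely from the choice of genes. Chromosome II held 16 of the 30. After each chromosome was centred, 13 genes were beyond the sum, 12 of them among the 30. CKS1, a cyclin-dependent kinase subunit, FMP23 and CMC2, mitochondrial proteins, and MSI1, a chromatin assembly factor subunit, are on chromosome II. Their distances went from 1.83 to 1.19, from 1.41 to 0.76, from 1.17 to 0.53 and from 1.13 to 0.49. Likewise, of 315 genes that rose in the double null but were called in neither single null, 117 are on chromosome II.

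The pair ARO9 and ARO10, whose enzymes carry aromatic amino acids toward fusel alcohols, went beyond the sum from chromosomes VIII and IV. ARO10, phenylpyruvate decarboxylase, read 0.738 and 1.002 in the strain labelled gcr1 null, 0.36 and 0.72 in the nup84 null and 3.06 and 3.43 in the double null. The double null did not overlap either single, at 1.83 ± 0.38 beyond the sum (limma adjusted p = 0.104). ARO9, the aromatic aminotransferase, read 0.47 and 0.53, 0.77 and 1.65, and 2.91 and 3.52. Its distance was 1.51 ± 0.46 (limma adjusted p = 0.198). CTF13, a kinetochore subunit on chromosome XIII, had singles of 0.79 and -0.31 and a double null of 1.75. YAL065C, an open reading frame of unknown role on chromosome I, had 0.50, 0.02 and 1.87. Its distance went from 1.35 to 1.71 with chromosomes centred.

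The phosphate regulon was higher in the double null than its sum. These genes take up, release and store phosphate and are known to be induced when it is scarce. Over 21 genes, 3 rose and 3 fell in the strain labelled gcr1 null, 3 rose and 1 fell in the nup84 null, and 12 rose and 1 fell in the double null. The median was 0.86 in the double null against a sum of -0.06. Of the 21, 18 lay above the sum, 9 at the unadjusted threshold and 0 below at it. Over all genes, 20.5% rose in the double null, 51.2% lay above the sum and 8.77% did so at that threshold. The median distance was 0.99, larger in sample 1 (1.20) than in sample 2 (0.48), and 0.72 for the 17 genes outside chromosomes I and II. It stayed above 0 in all alternatives run, from 0.43 to 1.10 over those that leave out a pair of arrays.

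Its members farthest above the sum had several roles. PHM6, a phosphate-regulated gene, lay 2.09 above. SPL2, an inhibitor of low-affinity phosphate uptake, read -0.996 and -1.006 in the strain labelled gcr1 null, 0.64 and 0.38 in the nup84 null and 3.04 and 1.58 in the double null. The 3 strains did not overlap, at 2.80 ± 0.55 from the sum (limma adjusted p = 0.0918). PHO84, the high-affinity transporter, read -0.04 and -0.09, 1.29 and 1.35, and 3.41 and 2.33, at 1.62 ± 0.46. PHO5, the main secreted acid phosphatase, read 1.39 and 2.17, 0.79 and 0.51, and 5.41 and 3.47. Its distance of 2.02 ± 0.70 became 1.37 with chromosomes centred, as PHO5 is on chromosome II. The other secreted phosphatases PHO11 and PHO12, which are near copies had double null values of 2.12 and 1.68 and sums of 0.13 and -0.10. PHO11 is on chromosome I, and its distance went from 2.00 to 2.36 with chromosomes centred.

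Polyphosphate and sensing genes filled in the rest. VTC1, VTC3 and VTC4, subunits of the vacuolar polyphosphate polymerase, lay 1.57, 1.28 and 1.01 above their sums, while VTC2 lay at 0.12. PHO81, PHO4 and PHO85, which sense and signal phosphate, lay at 0.15, 0.25 and 0.39. PHM8, a phosphatase, was the member farthest below, at -0.62, having risen in all 3 strains (1.17, 2.03 and 2.58). PHO89, a sodium-coupled transporter on chromosome II, went to 3.53 from singles of 0.90 and 1.43. Its distance of 1.20 became 0.56 with chromosomes centred. The transporters PHO91 and GIT1 lay at 0.72 and -0.48.

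For 8 genes the single nulls were called in opposite directions, and the double null can then cancel or follow 1 of them. RNR4, a ribonucleotide reductase subunit, read -1.05 and -0.89 in the strain labelled gcr1 null, 1.89 and 1.96 in the nup84 null and 0.40 and -0.68 in the double null. Its mean of -0.14 lay between the singles and below the sum of 0.95. IMD2, an IMP dehydrogenase, had 2.30, -1.54 and 0.08, with double null samples of 1.24 and -1.08. GLN1 and GLT1, which assimilate ammonium into glutamine and glutamate, had sums of 0.95 and 0.30 and double null values of 0.49 and 0.51. CHO2, of phosphatidylcholine synthesis, and MCH5, a riboflavin transporter, stood at -0.86 and -0.55, on the side of the strain labelled gcr1 null. SAM3, an S-adenosylmethionine permease, and YCL021W-A had distances of 0.38 and -0.64.

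Genes of the DNA damage response, to which RNR4 belongs, were mostly below the sum. Of 24 genes, 5 rose and 2 fell in the strain labelled gcr1 null, 9 rose and 0 fell in the nup84 null, and 7 rose and 2 fell in the double null. Over all genes, 34.8%, 16.7% and 39.5% were called in these strains. Below the sum lay 22 genes, with a median distance of -0.56. At the unadjusted threshold 8 lay below and 0 above, or 33.3% against 16.1% of all genes. DUN1, a checkpoint kinase, RNR2, a reductase subunit, and HUG1, a reductase inhibitor, rose in the nup84 null by 1.09, 1.66 and 1.48. In the double null they stood at 0.09, 0.47 and 0.50, and none was called there (limma adjusted p = 0.741, 0.268 and 0.0923). RNR3, another reductase subunit, rose in all 3 strains, at 1.42, 1.21 and 1.38.

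A few large distances rested on samples that disagreed. GCN4, a transcription factor that switches on amino acid synthesis, read 7.02 and 6.85 in the strain labelled gcr1 null, 1.51 and 7.42 in the nup84 null and 7.10 and 7.15 in the double null. Its distance was -1.43 in sample 1 and -7.12 in sample 2. ARG1, ARG4 and HIS4, enzymes of arginine and histidine synthesis picked after their values were seen, also differed between the nup84 null samples, at -2.29 and 1.38, 0.49 and 2.10, and 0.17 and 2.53. Amino acid synthesis genes as a list had a median distance of 0.37 over 69 genes, with 8 above and 4 below at the unadjusted threshold, or 17.4% against 16.1% of all genes. That median ranged from 0.10 to 0.67 when a pair of arrays was left out. HXT6 and HXT7, near-identical high-affinity glucose transporters, read 5.49 and 1.64, and 5.56 and 1.79, in the nup84 null. Their distances of -3.65 and -3.70 had SEs of 1.27 and 1.28. HXT4, a transporter with even singles of 1.98 and 1.88, read 1.51 and -0.56 in the double null.

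The nuclear pore list had a median distance of -0.02 over 34 genes, with 16 above and 18 below the sum, and 0 at the unadjusted threshold on either side. NUP159, its member farthest from the sum, had double null samples of -1.64 and 0.31. Median distances were 0.12 for karyopherins and RNA export factors, where NPL3, an mRNA-binding shuttling protein, stood at 1.25. They were 0.38 for chaperones, 0.18 for the proteasome, 0.21 for ergosterol synthesis, 0.34 for iron uptake and -0.32 for meiosis genes. The medians of the proteasome, ergosterol and meiosis lists changed sign when some pairs of arrays were left out. Daughter cell separation genes had a median distance of 0.77 over 16 genes, and the COS family, subtelomeric genes of similar sequence, one of -0.24 over 12, which also changed sign. The other lists, among them sulfate assimilation, permeases, purine synthesis, peroxisomes, oxidative stress and mating, had medians from -0.34 to 0.37. Of the 36 lists, 20 kept 1 sign of the median distance in every alternative run.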

How the data were processed

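Total RNA of 12 hybridisations was labelled with Cy3 and Cy5 and read on two-colour Agilent arrays, per the labels. The deposited log ratios were used as given and taken as log2. The table states neither log base, direction nor normalization; the authors' background correction and normalization are not given in the sources used here. Dye labels and the NUP84 values set the direction. The intensity of each channel was not used here, so it is not known which spots were dim or saturated. The number of arrays limits the precision.

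Arrays with the deletion strain in Cy3 had their sign turned. Of 10807 probes, 9271 had 1 gene, 1536 none and 0 several. Probes were averaged to 5636 genes (2026 with 1 probe), and each array was centred on its median. Limma 3.58.1 in R 4.3.3 was fitted to pair means of all 3 strains (3 residual degrees of freedom) with the contrast of the double null minus both single nulls. Arrays 1 and 3 with 2 and 4, then 1 and 4 with 2 and 3, were taken as swaps, and the larger p and SE and the joint interval were kept. No statement ties samples to separate cultures beyond the word biological, so p-values measure the spread between these samples.

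Genes were named by the 10 lowest and 10 highest distances and the 10 lowest p-values beyond the sum, at an unadjusted p under 0.05, the 5 largest sums near additivity, opposed singles and each list's farthest member. Other members named from the lists, and genes said to be so, were picked after their values were seen. The members, lists and naming rules were chosen with earlier results of these data known, and the chromosome comparisons and the unadjusted threshold after seeing the data. Chromosomes come from the RefSeq R64 gene table. The scripts were tested on simulated data. Alternatives covered pairing, centring, scale normalization, probe choice, a replicate block, moderation, a minimum contrast, left-out pairs and chromosome centring.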

Additional observations from a re-analysis of the deposited data

Results flagged for a closer look

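In 6 of 219 groups of 4 arrays of a named gene (2.74%), 1 array stood apart from the other 3. Chance gives about 1 in 20 for 4 independent values. The 4 arrays are 2 samples with dye swaps, so that rate does not hold here. The apart values were 3.859 for HXK1 and -1.365 for NPL3 in the nup84 null, and 2.647 for ADR1 in the strain labelled double null. In the strain labelled gcr1 null they were 0.423 for DUN1, 2.509 for SPO20 and -0.407 for MCH5.

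For 14 named genes every sample of one single null lay above wild type and every sample of the other below it. The gcr1 null minus nup84 null difference was positive for IMD2 (3.846), GLN1 (2.35), GLT1 (2.091), SAM3 (1.866), MET22 (1.279) and CTF13 (1.102). It was negative for YCL021W-A (-3.071), RNR4 (-2.897), SPL2 (-1.51), MCH5 (-1.481), CHO2 (-1.441), PHO84 (-1.382), PHO11 (-1.049) and UMP1 (-0.4027). These differences between the single nulls were not tested.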

How the results depend on the processing

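The pairing of arrays changed the counts most. Here the counts short and beyond take only genes called off the sum and called the same way in both single nulls, unless stated otherwise. When array 1 was matched with 4 and array 2 with 3, 3627 genes were called off the sum (1786 below, 1841 above), 3934 near it, 3831 at the unadjusted threshold, and 2486 short and 67 beyond. With all 4 arrays as replicates these were 655 (320, 335), 1732, 1621, 526 and 3, and with scale normalization 623 (299, 324) off, 576 short, 1657 unadjusted and 683 no farther than the larger single null. Robust moderation called 2 genes, 2 below and 2 short, and a minimum contrast of 1 left 97 at the unadjusted threshold. With the sample number as a replicate block, 0 genes were called and 966 were near the sum. Over genes, the sample 1 minus sample 2 differences correlated at 0.552 between the strain labelled gcr1 null and the double null. Those of the nup84 null correlated at 0.0985 with the double null and -0.00529 with the strain labelled gcr1 null. The block is not a pairing from the labels. Leaving out 1 pair of arrays under either pairing gave 0 to 3513 genes off the sum, 0 to 1740 below, 0 to 1773 above, 0 to 3829 near, 0 to 2488 short, 0 to 78 beyond and 326 to 3738 unadjusted. These ranges join both pairings: with array 1 matched to 3 and 2 to 4 the genes off the sum were 0 to 719, and with 1 matched to 4 and 2 to 3 they were 3147 to 3513. Leaving out arrays 1 and 3 or 2 and 4 of the strain labelled double null gave 220 and 719. In each such fit the lone sample is assumed to vary like the others. The share short of the sum among genes past 1 in both single nulls was 98.96%, and 97.1% and 90.0% when chosen and measured on different samples, and 81.58% with fold increases summed. Of the 779 genes called the same way in both single nulls, 752 to 773 were short by value with a pair left out. Chromosome centring kept each of these counts within 1.5 times. Signs changed in some settings for the genes near the sum (POX1 from -0.10 to 0.13, ATP8 to -0.49 and SCP160 from -0.03 to 0.36, among others), for STE6, GLT1, IMD2 and YCL021W-A, and for the medians of 16 of 36 lists. The cause of these changes was not tested. With 2 samples per strain, the median 95% interval of a distance reached 0.922 to either side.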
